A study of Mus musculus with 8 samples.

Results

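Retinoid handling genes take up, carry, store or convert vitamin A (retinol) and its products, and 9 of them are described here across the cell types of the mouse iris. The members were taken by name from the 22873 genes of the count matrices, and all 9 were present: Stra6, Ttr, Crabp1, Lrat, Rpe65, Rdh5, Rlbp1, Aldh1a1 and Aldh1a3. The rule that took them used names and not levels, but the list was drawn up with earlier results of these data known. Single nucleus RNA-seq had been carried out on irises with attached ciliary body from WT female albino mice, 6 to 8 weeks old. Several irises were pooled in each of the 8 libraries. The 3 untreated libraries received no eye drops. The 2 dilated libraries came from eyes given phenylephrine (5%), which contracts the dilator muscle, with cyclopentolate (1%), which blocks the sphincter's muscarinic receptors. The 3 constricted libraries came from eyes given pilocarpine (5%), which activates those receptors. Drops were given hourly and the treatments lasted 6.5 h, with dilated mice kept in darkness and constricted mice in light, and the effects of drug and of lighting cannot be told apart. Since the mice were albino and all female, nothing here bears on pigmented irises or on males.

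Retinol circulates bound to the carriers RBP4 and transthyretin (Ttr) and enters many cells through the membrane receptor STRA6. In the visual cycle of the retinal pigment epithelium, LRAT stores retinol as esters, RPE65 turns the esters into 11-cis-retinol, RDH5 oxidises this to 11-cis-retinal, and the binding protein CRALBP (Rlbp1) holds both 11-cis forms. Elsewhere retinol is oxidised to retinal and then, by the ALDH1A enzymes, to retinoic acid, the ligand of nuclear receptors that control transcription during eye development. Iris and ciliary epithelia arise from the same optic cup neuroepithelium as the retina and its pigment epithelium. The comparisons therefore show which steps of this chemistry were represented in nuclear RNA of which iris cells, and whether a few hours of pupil dilation or constriction changed them.

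The 8 libraries held 34357 nuclei and 109565284 UMIs (unique molecular identifiers, 1 for each captured RNA molecule), with 1274 to 7321 nuclei and 5189437 to 25136427 UMIs per library and median UMIs per nucleus of 2775 to 4697.5. Nuclei carried the study's deposited names for 10 cell types: dilator muscle, sphincter 1 and 2, iris pigment epithelium (iris PE), ciliary body epithelium (CBE), other ciliary body cells (CB), stroma 1 and 2, leukocytes and endothelial cells. Most names fitted their markers. However, Slc4a4, a bicarbonate transporter listed for CBE, was at 70.0 CPM there and 6338 CPM in CB, whereas Bmp4, listed for CB, was at 62.9 CPM there and 471 CPM in CBE. The deposited names CB and CBE were kept. Untreated 1 and dilated 1 shared 63 cell barcodes, 59 of them with the same cell type, and the other pairs of libraries shared 0 to 18. The results below that rest on untreated 1 or dilated 1 were also computed without nuclei whose barcode was shared within a series of library numbers, and no call on a member changed. In the nuclei of a cell type, fewer expressing nuclei and less RNA per nucleus cannot be told apart from a level alone.

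The stretches just upstream of the transcription start of Rpe65, Rlbp1 and Lrat are shown because these genes belong to the same cycle. Over all libraries Rpe65 and Rlbp1 had their largest shares of UMIs in dilator muscle (41.1% and 57.4%) and iris PE (18.9% and 26.7%). These types also held the most nuclei in every library, so the shares do not show a higher level there. Rpe65 was at 0.712 CPM in untreated dilator muscle and 0.941 CPM in untreated iris PE. Lrat had 77.5% of its UMIs in stroma 1. Rpe65 and Rlbp1 carried the only motif matches among the members, and Lrat and Rdh5, of the same cycle, carried none. Sequences are from RefSeq's table on GRCm38.p6, 5′ to 3′, ending short of the start site, with motif matches in capitals. Those shown are chr3:159598931-159599150 on the plus strand, chr7:79387058-79387277 on the minus strand and chr3:82904005-82904224 on the minus strand.
Rpe65: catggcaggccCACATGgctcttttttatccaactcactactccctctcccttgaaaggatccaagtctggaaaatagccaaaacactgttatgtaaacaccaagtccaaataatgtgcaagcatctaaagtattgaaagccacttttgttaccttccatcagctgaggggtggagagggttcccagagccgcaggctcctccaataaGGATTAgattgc
Rlbp1: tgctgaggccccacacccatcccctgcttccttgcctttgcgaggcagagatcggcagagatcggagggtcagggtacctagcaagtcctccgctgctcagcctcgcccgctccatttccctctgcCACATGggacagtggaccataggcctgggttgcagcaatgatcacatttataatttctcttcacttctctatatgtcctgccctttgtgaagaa
Lrat: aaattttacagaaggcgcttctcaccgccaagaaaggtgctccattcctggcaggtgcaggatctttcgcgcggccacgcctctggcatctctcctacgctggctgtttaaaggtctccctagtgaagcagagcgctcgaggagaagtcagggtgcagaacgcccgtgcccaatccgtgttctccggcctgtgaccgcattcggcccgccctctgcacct
The letters searched on both strands were CACGTG and CATGTG, forms of the E-box that MITF-type factors recognise, TAATCC, recognised by OTX and CRX homeodomain factors, and AGGTCA, the core of nuclear receptor response elements. The search covered 11 windows of 300 bases from 7 of the 9 members. Rpe65 held CATGTG at position 12 and TAATCC at position 209, and Rlbp1 held CATGTG at position 127, all on the opposite strand and counted from the 5′ end of the window. Among the 32851 windows of the table, 14.2% held CATGTG, 7.06% TAATCC, 7.15% CACGTG and 16.3% AGGTCA. A match of 6 letters describes the sequence only.

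In untreated irises 5 members reached at least 10 CPM (counts per 1000000, that is UMIs of the gene per 1000000 UMIs of that cell type in a library) in a cell type, and each of the 5 had its own pattern over the types. Rdh5 was highest in iris PE, Rlbp1 in CB and dilator muscle, Stra6 in CB, dilator muscle and stroma 2, Aldh1a1 in CBE, and Lrat in stroma 1. Rpe65, Aldh1a3 and Crabp1 stayed below 3 CPM in every cell type, and Ttr below 9 CPM. The map of mean untreated levels shows these separate peaks. Levels are not compared between genes, because 3′ UMI counts of nuclei depend on a gene's 3′ end and its introns as well as on its RNA.

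**Figure D1:**
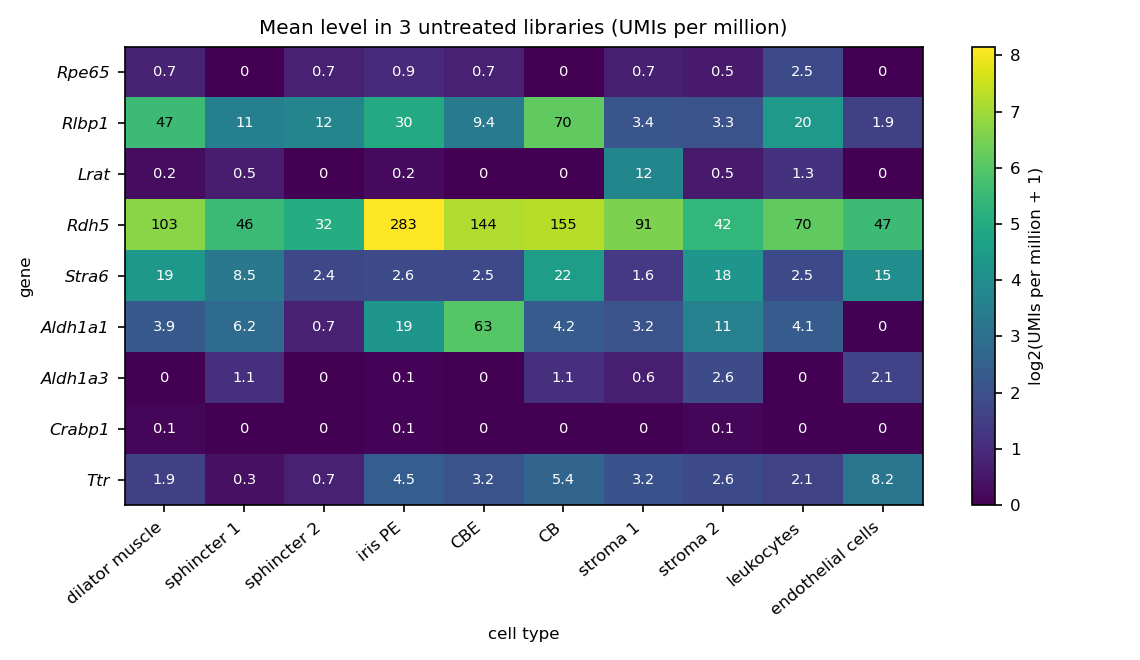
Mean level (CPM, log colour scale) of each member, in rows, in each of the 10 cell types, in columns, over the 3 untreated libraries. Read along a row: Rdh5 peaks in iris PE at 283 CPM, Aldh1a1 in CBE at 62.8 CPM and Lrat in stroma 1 at 12.4 CPM, while the rows of Rpe65, Aldh1a3 and Crabp1 are near 0.

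Stra6, the retinol uptake receptor, was at 26.0, 27.7 and 13.5 CPM in CB of untreated 1, 2 and 3 (mean 22.4 ± 7.76 SD, n = 3, from 27 UMIs). In dilator muscle it was at 18.7, 20.8 and 18.3 CPM (19.3 ± 1.34) and in stroma 2 at 16.9, 20.0 and 18.4 CPM (18.4 ± 1.55). These 3 types overlapped and their order is not established. In iris PE it was at 3.34, 1.99 and 2.49 CPM (2.61 ± 0.685). Every untreated library of dilator muscle and of stroma 2 lay above every one of iris PE. The share of untreated nuclei with a Stra6 UMI was 6.27% in dilator muscle (95% exact interval 5.56 to 7.03), 4.24% in stroma 2 and 0.699% in iris PE, against 1.04% in leukocytes. After each nucleus was thinned to 1000 UMIs the shares were 2.06%, 1.40%, 0.326% and 1.12%, and the leukocyte share rests on 2 of 193 nuclei (exact interval 0.126 to 3.69), which is too few to set a background level for iris PE. Intervals and floors here cover counting error only.

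Ttr, the carrier protein transthyretin, gave 433 UMIs over all libraries and had UMIs in all 10 cell types. Its untreated levels ran no higher than 8.25 CPM, in endothelial cells, where they rested on 4 UMIs. In iris PE it was at 4.46 ± 1.22 CPM and in CB at 5.35 CPM. Over all nuclei of a library Ttr was at 7.20 CPM in dilated 1, at 1.87 CPM in dilated 2 and at 2.14 to 4.95 CPM in the other 6 libraries. Dilated 1 was the highest of the 8 libraries, and it was also above dilated 2 in dilator muscle (5.33 against 0.802 CPM), in iris PE (8.32 against 1.37 CPM) and in stroma 2 (8.35 against 2.34 CPM). Crabp1, a cytoplasmic binding protein for retinoic acid, gave 7 UMIs in all, 3 in dilator muscle, 3 in iris PE and 1 in stroma 2. At this depth 3 UMIs correspond to 0.200 CPM in untreated dilator muscle and 0.253 CPM in untreated iris PE.

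Lrat, which esterifies retinol for storage, was at 12.6, 12.4 and 12.3 CPM in untreated stroma 1 (12.4 ± 0.116 SD, n = 3), from 7, 17 and 20 UMIs. These were 44 of the 55 untreated UMIs of the gene (80%), and over all 8 libraries stroma 1 held 69 of 89 (77.5%). The levels in all other types were at most 1.26 CPM, and no Lrat UMI was found in untreated CB, CBE, endothelial cells or sphincter 2. Over the untreated libraries a count of 0 allows up to 2.61 CPM in CB, 2.32 CPM in CBE, 2.37 CPM in sphincter 2 and 7.82 CPM in endothelial cells. In each untreated library the measured Lrat level of stroma 1 was above those of all other types. However, untreated 1 held 13 leukocyte nuclei (30205 UMIs) and 20 endothelial nuclei (51566 UMIs). Counts of 0 there are too shallow to place these types below stroma 1. The log2 ratio of the mean CPM + 1 of stroma 1 to that of leukocytes, whose value came from 1 UMI, was 2.57. The log2 ratios within the 3 libraries had an SD of 1.30. A Lrat UMI was found in 3.25% of stroma 1 nuclei (42 of 1292, exact interval 2.35 to 4.37) and in 0.069% of dilator muscle nuclei (3 of 4357). Stroma 1 was also the highest type for Sox10 (963 CPM) and Mitf (2178 CPM), which are melanocyte genes. An antisense gene, Rbm46os, covers all 11395 bases of Lrat, at chr3:82892579-82903973 (mm10, minus strand), and the sources used here do not say whether counting used strand. The same limit holds for Stra6 and Aldh1a1. On the opposite strand Ccdc33 covers 55036 of the 90209 bases of Stra6, and C730002L08Rik covers 59616 of the 150751 bases of Aldh1a1.

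Rpe65, the isomerohydrolase of the visual cycle and a defining gene of the retinal pigment epithelium, gave 90 UMIs over all libraries and had none in 47 of the 80 combinations of library and cell type. In untreated iris PE it was at 0.941 ± 0.67 CPM, from 8 UMIs, and in untreated dilator muscle at 0.712 ± 0.208 CPM, from 1, 4 and 6 UMIs. Both are above the value of 3 UMIs but are a few molecules per library. Of 7 other genes typical of the retinal pigment epithelium 4 were also low: Best1, Rgr and Slc16a8 were at most 1.26, 3.79 and 1.20 CPM in any type, and Ermn gave 9 UMIs. Rrh gave 200 UMIs and reached 10.6 CPM, in sphincter 2. Rdh10 and Itgb8, on the same list, reached 52.4 and 81.4 CPM.

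Rdh5, the 11-cis-retinol dehydrogenase, gave 14499 UMIs over all libraries. In iris PE it was at 273, 284 and 292 CPM in untreated 1, 2 and 3 (283 ± 9.52). It was at 176, 164 and 125 CPM in CB (155 ± 26.9), at 139, 176 and 119 CPM in CBE (144 ± 29.0), and at 106, 106 and 97.1 CPM in dilator muscle (103 ± 5.15). Every library of iris PE lay above every one of CB, whereas CB and CBE overlapped, and every library of CBE lay above dilator muscle. The log2 ratio of the mean CPM + 1 in iris PE to that in CB was 0.86, and the ratios within the 3 libraries had an SD of 0.31. From stroma 1 (91.4 ± 20.6) down to leukocytes (69.9 ± 35.2, from 29 UMIs), endothelial cells (47.1 ± 7.19), sphincter 1 (45.6 ± 17.1), stroma 2 (41.5 ± 1.79) and sphincter 2 (32.4 ± 28.4), neighbours overlapped. A UMI was found in 54.4% of iris PE nuclei (exact interval 52.8 to 56.0), 36.1% of CB, 32.4% of CBE, 27.3% of dilator muscle, 11.4% of leukocytes and 9.28% of stroma 2, at median depths of 3173, 3167.5, 3223, 3410, 1998 and 2425 UMIs. Thinned to 1000 UMIs the shares were 24.8%, 14.6%, 11.4%, 9.61%, 7.30% and 4.04%, in the same order. The stroma 2 share is at or below that of leukocytes, and whether either is background was not tested. Rdh5, at chr10:128913593-128922888 (mm10, minus strand), shares 5007 bases on the same strand with Bloc1s1, so that their reads can be split. Bloc1s1 itself was at 1.48 to 9.92 CPM over the types.

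Rlbp1, which encodes the retinal binding protein CRALBP, was at 80.9, 49.5 and 81.0 CPM in untreated CB (70.5 ± 18.2), at 39.3, 50.1 and 50.8 CPM in dilator muscle (46.7 ± 6.46), and at 20.1, 33.4 and 37.8 CPM in iris PE (30.4 ± 9.26). CB and dilator muscle overlapped, while dilator muscle lay above iris PE in all untreated libraries. CBE was lower, at 9.36 ± 4.68 CPM, and stroma 1 and stroma 2 were at 3.40 and 3.26 CPM. Leukocytes were at 20.2 ± 11.3 CPM. A UMI was found in 17.1% of CB nuclei (exact interval 13.2 to 21.4), 14.8% of dilator muscle (13.8 to 15.9) and 9.68% of iris PE. The shares were 3.22% in CBE, 3.63% in leukocytes (7 of 193) and 0.789% in stroma 2. Thinned, the shares were 7.89%, 4.90%, 3.23%, 0.271%, 1.12% and 0.240%, in the same order. The CBE share was at or below that of leukocytes, which rests on few nuclei. Whether the UMIs in CBE are background was not tested. Rlbp1 was thus lower in CBE than in CB, while Rdh5 overlapped between these types.

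Aldh1a1, which oxidises retinal to retinoic acid, was at 46.3, 75.6 and 66.6 CPM in untreated CBE (62.8 ± 15, from 85 UMIs) and at 23.4, 13.7 and 18.5 CPM in iris PE (18.5 ± 4.84). It was at 6.04, 10.6 and 15.6 CPM in stroma 2 (10.7 ± 4.76), and endothelial cells had no UMI. CBE lay above iris PE in every untreated library, and iris PE overlapped with stroma 2. The log2 ratio of the mean CPM + 1 in CBE to that in iris PE was 1.71, with an SD of 0.72 among the ratios within libraries. A UMI was found in 17.4% of CBE nuclei (exact interval 13.7 to 21.7), 4.89% of iris PE, 2.24% of stroma 2 and 0.964% of dilator muscle. Aldh1a3, the related enzyme of the developing ventral optic cup, gave 53 UMIs, 40 of them (75.5%) in stroma 2. There it was at 1.21, 5.00 and 1.70 CPM in the untreated libraries (2.64 ± 2.06, from 23 UMIs).

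**Figure D2:**
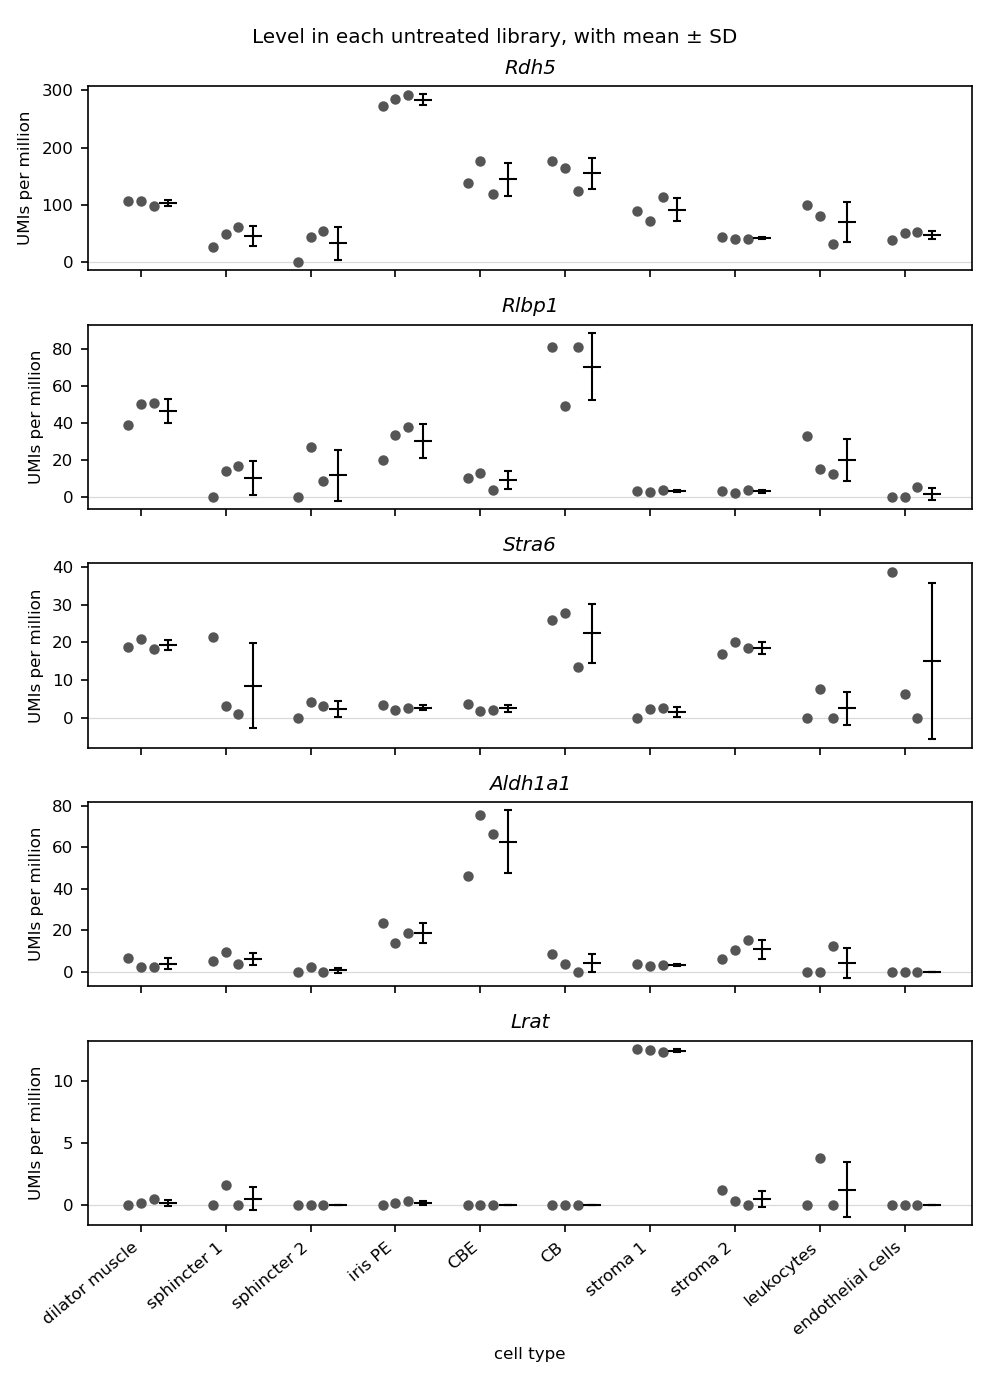
Level (CPM) of the 5 members that reached 10 CPM, by cell type, in the 3 untreated libraries; points are libraries and bars are mean ± SD. The 3 points of iris PE stand above the rest for Rdh5, those of CBE for Aldh1a1 and those of stroma 1 for Lrat, whereas CB and dilator muscle overlap for Rlbp1 and Stra6.

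The members did not share a single pattern. Over the 10 cell types, Pearson's r of log2(CPM + 1) was 0.57 between Rlbp1 and Rdh5 and 0.58 between Rdh5 and Aldh1a1, and -0.44 to 0.19 for the other pairs of the 5. In dilator muscle nuclei thinned to 1000 UMIs, 20 of 4331 held both Rlbp1 and Rdh5, and the product of their shares gives 20.4. In iris PE 32 of 3682 held both, and the product gives 29.5. In CB, where Rlbp1 was highest, 1 of 342 held both and the product gives 3.95.

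Among 14391 genes that reached 10 CPM in a type, those most like Rdh5 were Vill (r = 0.974), Aspa (0.904) and Slc20a2 (0.904). Among those most like Rlbp1 were Polb (0.957) and Lrpprc (0.930). Those most like Stra6 were Map1lc3a (0.842), Dcaf5 (0.833) and Shf (0.825). Those most like Aldh1a1 were Arvcf (0.944), Nat8f1 (0.929) and Ccdc129 (0.923), and those most like Lrat were Mybphl (0.967), Mcoln3 (0.966) and Bmyc (0.962). The 10 points of each correlation come from the same 3 libraries and differ in depth, and the values are descriptions.

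The rest of the pathway was read from 44 other genes in 5 lists, described by their highest untreated levels. In the list of visual cycle and retinol turnover, Abca4, a transporter that clears retinal from membranes, was highest in CB (341 ± 51.5 CPM) and similar in CBE (337 CPM). Dhrs3, which reduces retinal to retinol, was highest in stroma 1 (188 ± 21.2 CPM) and similar in leukocytes (183 CPM), and Rdh14, a retinol dehydrogenase, was at 61.7 CPM in CBE and 61.5 CPM in dilator muscle. Among carriers and uptake genes, the scavenger receptors Scarb1 and Cd36 were highest in endothelial cells (181 ± 99.6 CPM) and leukocytes (162 ± 43.6 CPM), and Fabp5, a fatty acid binding protein that also binds retinoic acid, in dilator muscle (40.6 ± 9.22 CPM, with sphincter 2 at 37.9 CPM). The retinoic acid synthesis enzyme Aldh1a2 was highest in stroma 2 (87.6 ± 31.1 CPM), Cyp1b1 in CB (63.1 ± 12.1 CPM) and Aldh1a7 in iris PE (18.5 ± 4.36 CPM). Among the receptors, Rarb was highest in stroma 2 (1389 ± 57.9 CPM) and similar in stroma 1 (1350 CPM), Rarg had its highest mean in stroma 2 (108 ± 39.0 CPM), overlapping with stroma 1 (77.3 ± 4.71 CPM), and Rara in CB (46.8 ± 24.5 CPM), overlapping with CBE (32.9 ± 15.7 CPM). Of the retinoic acid response list, Tgm2, a transglutaminase, was at 134 ± 35.8 CPM in stroma 2.

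Treatment effects were tested on UMIs summed by library and cell type with edgeR's quasi-likelihood test. A gene was called when its log2 fold change was beyond 0.6 in size and its Benjamini-Hochberg adjusted p over all genes of that cell type was below 0.05. The 5 members Rdh5, Rlbp1, Stra6, Aldh1a1 and Ttr had enough UMIs in at least 1 type, giving 21 combinations of gene and type. Rpe65, Lrat, Aldh1a3 and Crabp1 passed the filter on low counts in no type, so for them only values are given.

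With dilation, Stra6 was lower in dilator muscle, and no other member was called. Its level there was 18.7, 20.8 and 18.3 CPM in untreated 1, 2 and 3 and 10.8 and 7.01 CPM in dilated 1 and 2 (8.89 ± 2.65 SD, n = 2). Both dilated libraries lay below all untreated and all constricted ones (18.0, 24.8 and 14.0 CPM). The fitted log2 fold change was -0.93 (SE 0.262), 1.91-fold lower, with an edgeR adjusted p of 0.0323. The difference had the same direction within each series of library numbers (untreated 1 against dilated 1, and untreated 2 and 3 against dilated 2), and with series as a term it passed as well (adjusted p = 0.00446). The share of dilator muscle nuclei with a Stra6 UMI was 6.27% untreated (273 of 4357), 3.43% dilated (133 of 3873, exact interval 2.88 to 4.06) and 5.60% constricted (189 of 3376). Thinned to 1000 UMIs the shares were 2.06%, 1.01% and 1.57%. Dilator muscle was also the type in which most genes moved: 13.3% of its 15395 tested genes were called with dilation, 7.2% higher and 6.14% lower, against 3.47% of all tested gene and type combinations in the 8 types where a member was tested. The single call among 5 members tested in dilator muscle and among 21 combinations is near these backgrounds, and nothing about the members as a set is read from it. Of the 21 combinations 13 were above 0 and 8 below, with a median log2 fold change of 0.04, against 0.00 over all genes.

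The call on Stra6 rests on few libraries. Without dilated 1 the log2 fold change was -1.21 (edgeR adjusted p = 0.0558), without dilated 2 it was -0.75 (0.203), without untreated 2 it was -0.84 (0.136) and without untreated 3 it was -0.97 (0.0859). In the same nuclei the summed level of 9 lens markers, of which Bfsp2 makes up most, was 402 to 512 CPM untreated and 247 to 311 CPM dilated. That of 7 retinal pigment epithelium markers was 30.8 to 34.8 CPM untreated, 41.3 to 50.0 CPM dilated and 37.7 to 51.9 CPM constricted. Of the marker lists of other cell types, 6 genes were called in dilator muscle with dilation, where 13.3% of all 15395 tested genes were called. Nothing about the lists is read from this count. The list names do not give the source of the RNA. Bfsp2 and Clu were highest in dilator muscle itself, at 464 and 214 CPM untreated. Tyr and Dct were highest in stroma 1, and the melanocyte list summed to 9236 to 9990 CPM in untreated dilator muscle. Bfsp2 (lens, log2 fold change -0.65) and Tyr (melanocyte, -1.95) were lower, and Itgb8 (1.47), Vim (Müller glia, 2.34), Clu (cornea, 0.82) and Dct (melanocyte, 0.76) were higher, while Best1, Rgr and Slc16a8 stayed near 0. Their part in the difference of Stra6 was not tested.

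**Figure D3:**
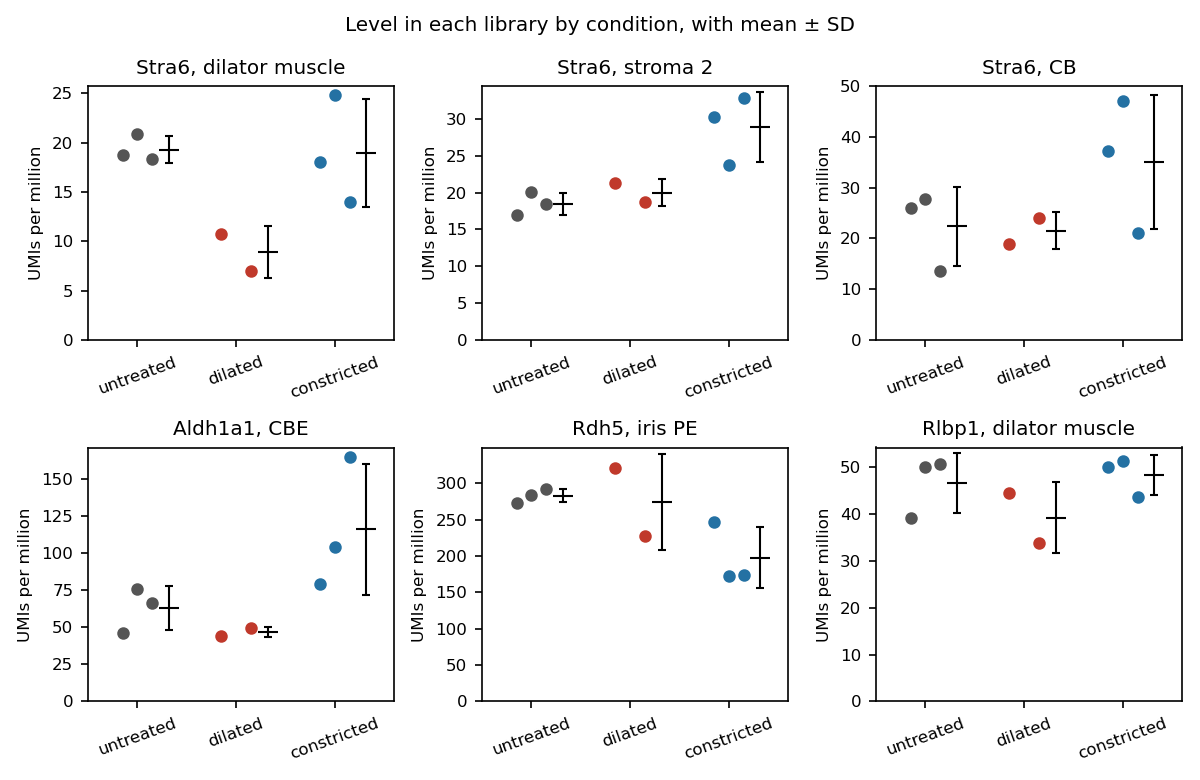
Level (CPM) in each library, by condition, for Stra6 in dilator muscle, stroma 2 and CB, Aldh1a1 in CBE, Rdh5 in iris PE and Rlbp1 in dilator muscle; points are libraries and bars are mean ± SD. Both dilated libraries lie below the others for Stra6 in dilator muscle, and the 3 constricted libraries lie above the others for Stra6 in stroma 2.

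In stroma 2 Stra6 was at 21.3 and 18.7 CPM in dilated 1 and 2, next to 16.9, 20.0 and 18.4 CPM untreated (log2 fold change 0.13, edgeR adjusted p = 0.918). In CB it was at 19.0 and 24.1 CPM, within the untreated range (-0.17, SE 0.443). In a joint fit of both types, the dilation effect on Stra6 was 1.05 higher in stroma 2 than in dilator muscle on the log2 scale (SE 0.309, edgeR adjusted p = 0.0451). The difference missed the threshold without any 1 of untreated 1, 2 or 3 or dilated 1 or 2 (adjusted p 0.0799 to 0.167). For iris PE against dilator muscle the difference was 0.04 (SE 0.788), and for CB it was 0.73 (SE 0.469), neither of which passed. In iris PE, where Stra6 had too few UMIs to be tested alone, it was at 0.685 to 1.56 CPM dilated (11 UMIs). It was at 0.374 to 1.97 CPM constricted there (8 UMIs). Both ranges lay below the untreated 1.99 to 3.34 CPM.

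The other members were not called with dilation. Rdh5 in iris PE was at 321 and 227 CPM in the dilated libraries, on either side of the untreated ones (log2 fold change -0.01, SE 0.177). Rlbp1 in dilator muscle was at 44.6 and 33.9 CPM, overlapping with untreated (-0.10, SE 0.177). Aldh1a1 in CBE was at 44.1 and 49.3 CPM, overlapping with the lowest untreated library (-0.47, SE 0.310), and in iris PE at 10.4 and 13.4 CPM, below all 3 untreated libraries (-0.56, edgeR adjusted p = 0.704). Ttr in stroma 2 had a log2 fold change of 1.16 (edgeR adjusted p = 0.462), which became -0.087 without dilated 1. Of the members that were not tested, Lrat in stroma 1 was at 9.74 and 3.33 CPM, from 7 and 2 UMIs, below the untreated 12.6, 12.4 and 12.3 CPM. Rpe65 in dilator muscle was at 0.296 and 0.200 CPM, from 3 and 1 UMIs, below all 3 untreated libraries.

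With constriction no member was called, and edgeR called 0.0124% of all combinations in the same 8 types. At an unadjusted edgeR p below 0.05 there were 5 of 21 combinations, against 5.15% over all genes. With dilation there was 1 of 21, against 13.2% over all genes. The 21 combinations share libraries and genes, and nothing about the members as a set is read from these counts. With constriction DESeq2 also called none of the 21. Aldh1a1 in CBE was at 78.9, 104 and 165 CPM in constricted 1, 2 and 3, all above the untreated libraries (46.3, 75.6 and 66.6 CPM), with a log2 fold change of 0.77 (SE 0.286, edgeR adjusted p = 0.548). Stra6 in stroma 2 was at 30.3, 23.7 and 32.8 CPM, all above the untreated and the dilated libraries (0.64, SE 0.215, adjusted p = 0.722). Rdh5 in iris PE was at 246, 173 and 174 CPM, all below the untreated libraries (-0.51, SE 0.162, adjusted p = 0.920), and Rdh5 in CBE was at 109, 93.6 and 61.1 CPM, also all below them (-0.61, adjusted p = 0.654). Ttr in stroma 2 was at 5.61, 4.31 and 9.18 CPM against 2.42, 2.50 and 2.83 CPM (1.28, SE 0.549, adjusted p = 0.910). These 5 did not overlap with the untreated groups, yet none passed the adjusted threshold.

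Among the remaining values with constriction, Stra6 in dilator muscle did not move beyond its spread (log2 fold change -0.06, SE 0.231). Stra6 in CB was at 37.3, 47.1 and 21.0 CPM, overlapping with untreated (0.72, adjusted p = 0.961). Rdh5 in dilator muscle was at 103, 83.8 and 75.6 CPM, and Rlbp1 there at 50.1, 51.4 and 43.6 CPM. Lrat in stroma 1 ranged from 3.43 to 17.3 CPM, from 2, 5 and 9 UMIs. Rpe65 in dilator muscle was at 2.32, 0.886 and 1.90 CPM, from 12, 2 and 8 UMIs, with constricted 1 and 3 above all untreated libraries. The median over the 21 combinations was 0.06, against 0.01 over all genes. The comparisons with dilation and constriction share the untreated libraries.

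**Figure D4:**
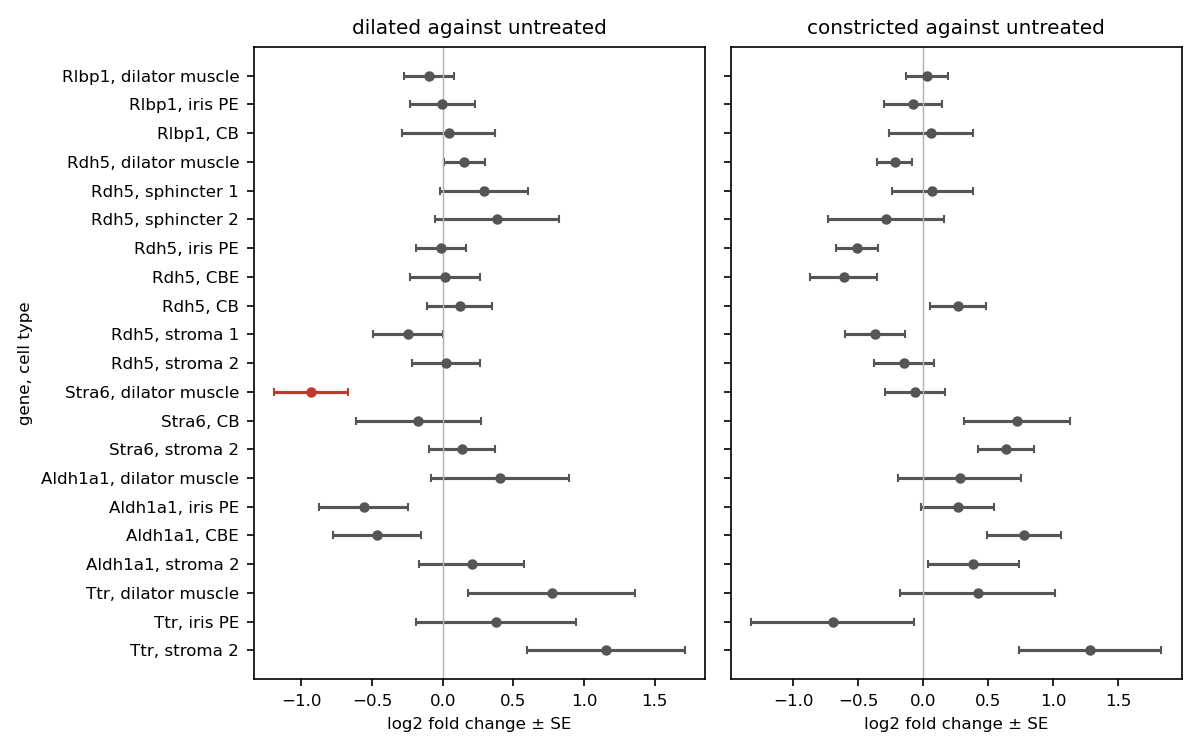
Log2 fold change ± SE (edgeR) of the 21 tested combinations of member and cell type, for dilated and for constricted against untreated; red marks a combination called at an adjusted p below 0.05. The single red point is Stra6 in dilator muscle with dilation, at -0.93.

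Of the 44 other pathway genes, 35 were tested in at least 1 type (137 combinations). With dilation 4 genes were called in 5 combinations, 3 higher and 2 lower, against 3.34% of all combinations over the 10 types. In dilator muscle 4 of 27 tested were called, near the 13.3% of all its genes. In the dilator muscle, 2 of 5 tested carrier and uptake genes were higher, 2 of 5 tested receptors were lower, and none of 15 tested visual cycle and retinol turnover genes was called (7.2% of all genes there were higher and 6.14% lower). With the replicate block or with library series as a term, Bco2, a carotenoid oxygenase of that list, was lower (log2 fold change -1.76 and -1.72, edgeR adjusted p = 0.0348 and 0.0208), as was Cd36 (adjusted p = 0.0145 and 0.00584), and Fabp5 was higher (0.0256 and 0.0244). Of 5 tested response genes 1 was higher, which is Crabp2, also on the carrier list. No gene of retinoic acid synthesis and breakdown could be tested there. The median over the 27 tested pathway genes in dilator muscle was -0.01, against 0.02 over all genes.

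Crabp2, a carrier that delivers retinoic acid to nuclear receptors, was at 0.623, 0.563 and 0.791 CPM in untreated dilator muscle (10 UMIs) and at 6.02 and 7.21 CPM with dilation (97 UMIs). The groups were far apart, with a log2 fold change of 3.42 (SE 0.544, edgeR adjusted p = 0.00125), and the constricted libraries were at 0.581, 0 and 1.18 CPM. The share of nuclei with a UMI was 0.230% untreated and 2.45% dilated. In stroma 2 Crabp2 was at 6.32 ± 1.56 CPM untreated and 3.19 ± 1.21 CPM with dilation. In iris PE it was at 4.44 ± 0.652 CPM and 5.93 ± 2.75 CPM. Rbp4, which carries retinol in blood, was at 1.25, 0.704 and 1.11 CPM and at 3.06 and 2.40 CPM (1.68, SE 0.494, adjusted p = 0.0388), again without overlap. The mean CPM of Rbp4 was also higher with dilation in every other type except endothelial cells, from few UMIs outside stroma 2. In sphincter 1 it was 1.20 untreated and 7.34 dilated, and in CB 0.660 and 5.11. In a joint fit the dilation effect in stroma 2 differed from that in dilator muscle by -0.03.

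The receptors Rarg and Rara were lower. Rarg was at 46.1, 47.3 and 43.8 CPM untreated and at 28.5 and 18.0 CPM with dilation (-0.79, SE 0.180, edgeR adjusted p = 0.0118). Rara was at 21.8, 18.0 and 18.0 CPM and at 11.2 and 8.82 CPM (-0.73, SE 0.229, adjusted p = 0.04995, just inside the threshold). Rara's call was lost without any 1 of the 5 libraries, under DESeq2 (adjusted p = 0.0688), with RLE factors (0.0501) and with no filter on low counts (0.0557). That of Rarg was lost without dilated 2 (0.128) or untreated 2 (0.0628). That of Rbp4 was lost without any 1 of dilated 1 and 2 and untreated 2 and 3, under DESeq2 (0.160), with no filter (0.0575) and with the replicate block (0.0721). Crabp2 kept its call in every alternative run.

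In stroma 2, Rbp4 was the only pathway gene called with dilation, where 1.73% of 12788 genes were. It was at 33.8, 31.0 and 28.9 CPM untreated and at 78.4 and 131 CPM with dilation (log2 fold change 1.80, SE 0.293, edgeR adjusted p = 0.0103). That call was lost without untreated 2 (0.0619) or untreated 3 (0.0866). Rarb there missed the threshold (-0.79, SE 0.187, edgeR adjusted p = 0.0598) but was called lower under DESeq2 (0.00463), with no filter (0.00345), with the replicate block (0.0392), with library series as a term (0.00907) and without constricted 3 (0.0192). With constriction Rbp4 was at 52.1, 96.9 and 86.6 CPM, also above every untreated library (1.33, SE 0.280, adjusted p = 0.246). It was called there by edgeR with the replicate block (1.38, adjusted p = 0.0179), with library series as a term (1.33, 0.0430) and with no filter on low counts (1.32, 4.4e-06). Among the 137 combinations no pathway gene was called with constriction by edgeR in the fit as designed, 8 were at an unadjusted p below 0.05 (5.25% over all genes) and DESeq2 called 1, Rbp4 in stroma 2 (DESeq2 adjusted p = 0.00998). Over all 10 types edgeR called 0.0118% of combinations. Rbp4 was also at 0, 1.19 and 1.42 CPM in untreated iris PE and at 3.29 and 4.45 CPM there with dilation. Whether RNA from stroma 2 nuclei contributed to the levels in other types was not tested.

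**Figure D5:**
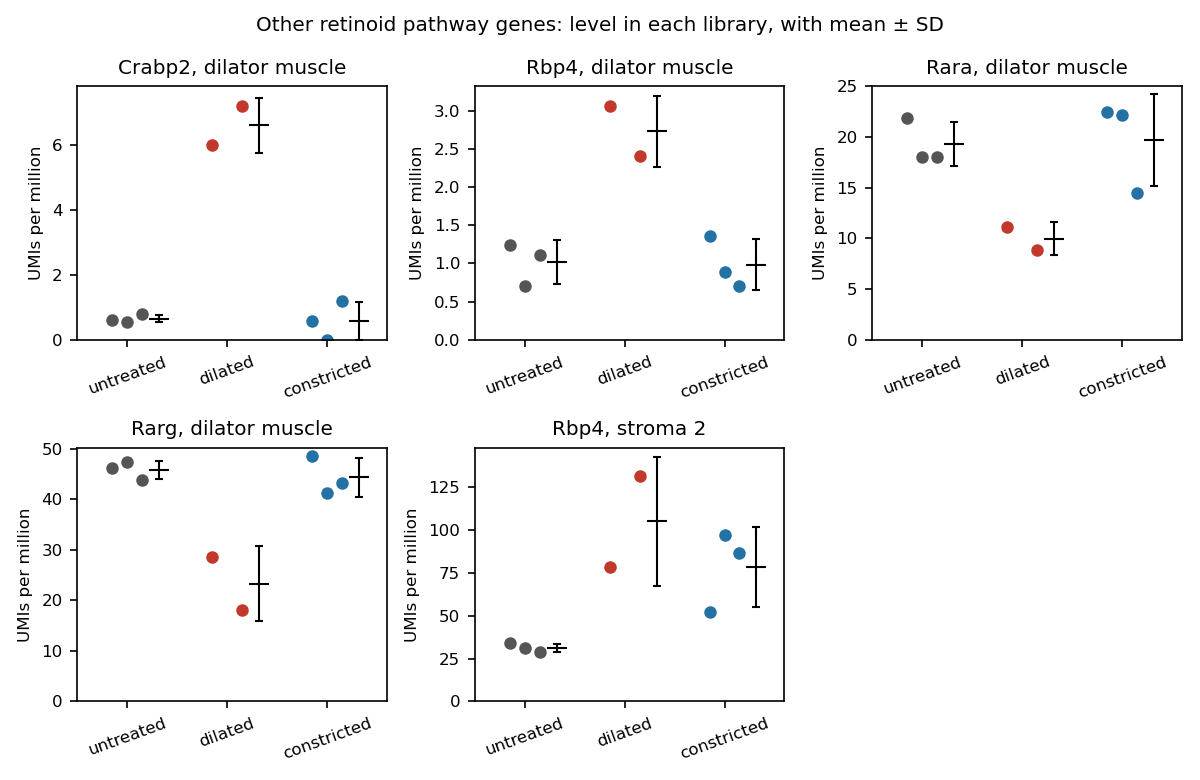
Level (CPM) in each library, by condition, of Crabp2, Rbp4, Rara and Rarg in dilator muscle and of Rbp4 in stroma 2; points are libraries and bars are mean ± SD. In dilator muscle both dilated libraries lie above the untreated ones for Crabp2 and Rbp4 and below them for Rara and Rarg.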

How the data were processed

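Single nucleus RNA-seq (10x Genomics Chromium 3′ v3) had been performed on irises of untreated, dilated and constricted mice. According to the study's methods and processing notes, reads were aligned by the authors with Cell Ranger 3.1.0 to an mm10 pre-mRNA index, so that intronic reads were included, nuclei were filtered and clustered in Seurat, and cell type names were assigned. The deposited counts are UMI counts, whole numbers for each gene in each nucleus, with no normalisation. In 2707 nuclei the summed counts differed from the deposited total per nucleus. The authors also deposited a percent of mitochondrial counts per nucleus, which was checked but not used as a filter. No values of other samples were present (0 columns).

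Nuclei were grouped by library and deposited cell type and their UMIs summed. Levels are counts per 1000000 UMIs of a cell type in a library (CPM). Each cell type was fitted over all 8 libraries with edgeR 4.0.16 (TMM factors, filterByExpr, quasi-likelihood test, R 4.3.3), with Benjamini-Hochberg adjustment over all genes of the type. A call needed a log2 fold change beyond 0.6 and an adjusted p below 0.05. The dilation effect was compared between types in joint edgeR fits with library as a term. DESeq2 1.42.0 was an alternative. Scrublet, run in scanpy 1.11.5, marked 359 nuclei (1.04%) as doublets, which were kept in the results and removed in an alternative. Shares of nuclei were thinned to 1000 UMIs, leaving out 444 shallower nuclei, and carry 95% exact Clopper-Pearson intervals. A count of 0 was read against 3 UMIs. Cell types were compared by untreated values with no test, since types of a library share it. The libraries are separate pools of irises. According to the study's methods they were prepared in several batches and sequenced in more than a single run, but the sources used here do not tie libraries to batches. Library series is the run of numbers in the sample titles. P-values measure the spread between pools.

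The members and the gene lists were chosen with earlier results of these data known. All 9 members are named, together with every pathway gene that was called, the 3 genes with the highest untreated level in each list, and the 3 genes most like each member of at least 10 CPM. A gene of the pathway lists and a gene named for its likeness are not reported here. Alternatives were other normalisation, DESeq2, no filter on low counts, a replicate block, library series as a term, removal of doublets, of shared barcodes and of libraries under 20 nuclei of a type, and each library left out in turn. Gene positions are from GENCODE on mm10.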

Additional observations from a re-analysis of the deposited data

Results flagged for a closer look

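Differences of the dilation effect between cell types were tested in joint fits with edgeR, on the log2 scale, and 4 passed the adjusted threshold. The genes were those called with dilation in a type compared, which favours passing. The share of all genes that passed in these fits is not given here. For the member Stra6 the effect was 1.05 higher in stroma 2 than in dilator muscle (SE 0.309, adjusted p = 0.0451), and all 4 comparisons were chosen after seeing the data. Crabp2, which delivers retinoic acid to its receptors, had an effect lower by 2.99 in iris PE than in dilator muscle (a difference of -2.99, SE 0.558, edgeR adjusted p = 6.02e-04). Against stroma 2 the difference for Crabp2 was -4.14 (edgeR adjusted p = 7.97e-04). Rara had an effect 0.84 higher in stroma 2 than in dilator muscle (SE 0.239, edgeR adjusted p = 0.0390). The effect in iris PE minus that in dilator muscle was 0.45 for Rara, 0.45 for Rarg and 0.01 for Rbp4. The effect in stroma 2 minus that in dilator muscle was -0.04 for Rarg and -0.03 for Rbp4. For Rbp4 the effect in iris PE minus that in stroma 2 was -0.07, and none of these differences for Rara, Rarg and Rbp4 passed. The differences for Crabp2 in both types passed with each library left out in turn. Those for Stra6 and Rara missed the threshold without any 1 of the untreated and dilated libraries.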

How the results depend on the processing

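Of the alternative values for results that answer a comparison, 113 kept direction and side of the threshold (with no test, moved by less than 1 SD), 7 counts of calls were lower and 6 higher by over 1.5 times, 3 moved and 2 changed sign. For single genes 356 kept both. Of the values for single genes 33 kept the direction but were no longer past the threshold, 4 passed it newly and 5 changed sign. The log2 ratio of Lrat in stroma 1 to leukocytes was 1.21 with nuclei thinned to 1000 UMIs and 0.99 on the log2(CPM + 10) scale, and the log2 ratio of Rdh5 in iris PE to CB was 0.53 over all 8 libraries, all still higher in the first type. With a library left out, the number of members called with dilation ranged from 0 to 1 and that of pathway combinations from 1 to 6, against 5 with all libraries, with 1 without untreated 2, 2 without dilated 2 and 2 without untreated 3. With library series as a term there were 9 pathway calls with dilation. The share of all genes called in each alternative fit is not given here, so these counts are not read as a change in the pathway. With constriction pathway calls numbered 1 under DESeq2, 2 with no filter on low counts, 1 with the replicate block and 1 with library series as a term. Changes of sign were all in values that missed the threshold in each fit. Stra6 with constriction in dilator muscle ranged from -0.28 without constricted 2 to 0.10 without constricted 3 (0.04 without untreated 2). Stra6 with dilation in CB ranged from -0.37 without untreated 3 to 0.11 without dilated 1 (0.04 without untreated 2), and Ttr with dilation in stroma 2 was -0.087 without dilated 1 and 1.62 without dilated 2. The difference of the dilation effect on Stra6 between iris PE and dilator muscle ranged from -0.44 without dilated 1 to 0.19 without dilated 2 (-0.22 without untreated 2). The cause was not tested. Replicate numbers did not pair the libraries: same-numbered libraries deviated together (r 0.13 to 0.45) only within a series, and constricted 2 did not follow untreated 2 or dilated 2. With the replicate block, 1 member was called with dilation (Stra6 in dilator muscle, log2 fold change -1.01, edgeR adjusted p = 0.0172) and 8 pathway combinations. Precision is limited by the 2 dilated pools and by low UMI counts, above all for Rpe65, Lrat, Aldh1a3 and Crabp1.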
